A study of Mus musculus with 4 samples.

Results

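DNA repair genes were examined in nasal process (NP) tissues of E11.5 mouse embryos as named gene families: the *Fanc*, *Rad5*, *Xrcc*, *Ercc*, *Msh*, *Mlh*, *Lig*, *Brca* and *Parp* genes recognised by symbol, together with *Atm*, *Atr*, *Chek1*, *Chek2*, *Xpc*, *Ddb1*, *Polk* and *Blm*. The rule reads gene symbols alone. Of the 13577 genes with values, 66 were found in this way, and 63 had a mean above 1 CPM (a gene's reads relative to all reads of that library) and were tested. *Msh5*, *Parp12* and *Parp14* lay under that mean, and *Ddb2*, which also belongs to the set, was not analysed here. Genes that p53 can induce were represented by *Xpc* and *Polk*, and they were set beside the 64 other members.

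Bulk RNA-Seq had been performed on 2 libraries titled control and 2 titled ca-*Acvr1* mutant. In the study's methods the control genotype is *P0-Cre* with ca-*Acvr1(A11)* +/+, the mutant genotype is *P0-Cre* with ca-*Acvr1(A11)* fl/+, and the genetic background is mixed. Both groups therefore carry *P0-Cre*, a transgene active in neural crest cells, and only neural crest derivatives of the mutant are meant to express the constitutively active BMP type I receptor, while epithelium, blood and vessels of the same tissue are not. The labels do not say whether a library holds 1 embryo or a pool, or whether the libraries come from separate litters, so that the spread between replicates may be technical in part. The labels disagree, since libraries with a control title have the mutant's genotype entry and the reverse. The titles were followed, and every direction below turns round under the genotype entries. *Acvr1* itself had 21.5 and 23.1 CPM in the control group and 24.1 and 12.6 CPM in the mutant group (adjusted p = 0.786 from limma), and its level does not tell which label is right.

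DNA repair works through several pathways that meet different lesions. Base excision repair removes small damaged bases and seals single-strand breaks, nucleotide excision repair cuts out bulky distortions, and mismatch repair corrects errors of replication. Homologous recombination and end joining mend double-strand breaks, the Fanconi anemia pathway unhooks crosslinks between strands, and translesion polymerases copy past damage that remains. The kinases ATM and ATR report damage to effectors that include p53, a transcription factor that in turn can induce a small number of repair genes. Dividing embryonic cells use many of these genes during replication.

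The 4 libraries held from 1956831 to 2408827 reads, and 1 read was worth between 0.415 and 0.511 CPM. The reads come from the ends of transcripts, so CPM values count transcripts without regard to their length. Over all 12462 genes tested with limma, 38 (0.305%) were called higher and 74 (0.594%) lower in ca-*Acvr1(A11)* libraries at an adjusted p under 0.05. All 12 mesenchyme markers had reads in every library. So did the epithelium, neural, erythroid and endothelium markers, and having reads therefore does not test the tissue label. Of the mesenchyme markers, 10 were called lower in ca-*Acvr1(A11)* libraries. Their summed level was 2248 and 2719 CPM in control against 1259 and 1316 CPM. Epithelium markers were called higher for 2 of 9 (summed level 241 to 257 CPM in control, 365 to 401 CPM in the mutant group) and macrophage markers for 2 of 9 (48.5 to 51.5 CPM and 85.5 to 120 CPM, with *C1qa* at 0 in a library). Neural (9 genes, summed level 1217 to 1234 CPM and 1536 to 1654 CPM), erythroid (6 genes) and endothelium markers (7 genes) had 0 calls. The part of these marker differences in the values of the repair genes was not tested, and fewer cells of a type and less RNA per cell cannot be told apart in bulk tissue.

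No member of the DNA repair families passed the test. At an adjusted p under 0.05, 0 of the 63 tested members were called in either direction by limma, and edgeR, DESeq2 and limma-voom on reads recovered from the CPM values also called 0. At an unadjusted p under 0.05 from limma, 4 of the 63 were higher (*Polk*, *Ercc6*, *Ercc5* and *Xrcc6*) and 0 were lower. Of all genes, 5.42% were higher and 4.12% lower at that threshold, so the higher members were near the share of all genes. The median log2 fold change of the members was 0.05, beside 0.03 for all genes tested. Values were higher on the log2 scale for 37 members and lower for 26, beside 6752 higher and 5710 lower among all 12462 genes tested. Together the 66 members took 0.355% and 0.335% of the reads in the control group and 0.360% and 0.354% in the mutant group.

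**Figure D1:**
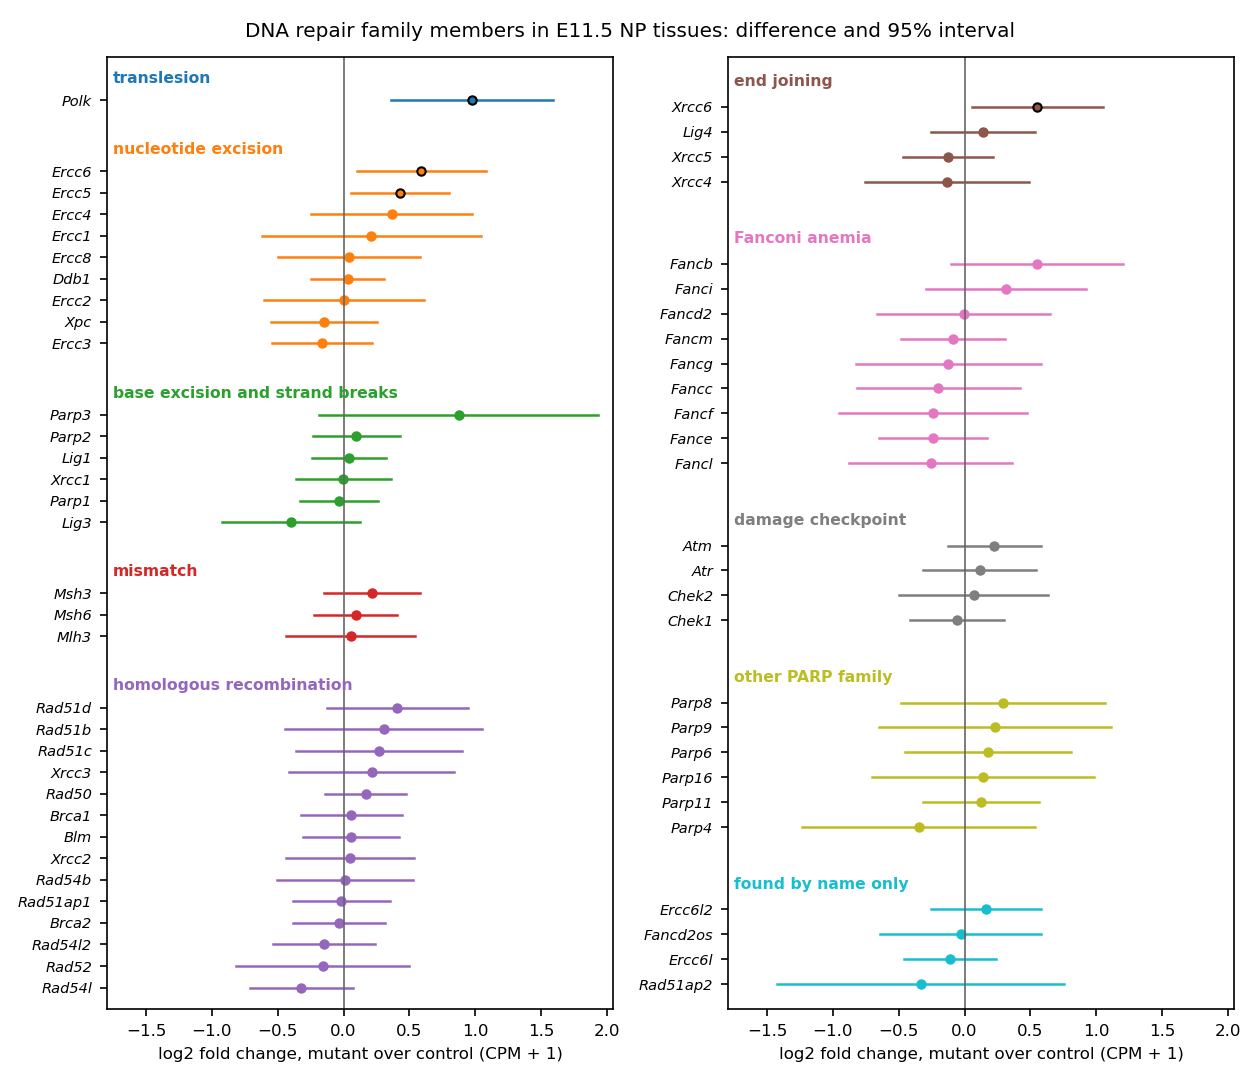
Log2 fold change of CPM + 1 in ca-*Acvr1(A11)* over control libraries (x axis) for 60 of the 63 tested members, ordered within their repair pathway, with 95% intervals as lines. The points ringed in black are the 4 members with an unadjusted p under 0.05, whose intervals lie to the right of 0, while the intervals of the other members cross 0.

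Both ca-*Acvr1(A11)* values lay above both control values for 16 of the 63 members and below them for 8, where 21.9% and 16.8% of all genes tested did so.

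*Polk* had the largest difference among the 63. It encodes DNA polymerase kappa, a translesion polymerase that copies past bulky adducts on guanine, and is one of the repair genes that p53 can induce in mouse. It lies on GRCm38 chr13:96480690-96542579 on the minus strand (Entrez gene 27015). *Polk* was at 10.7 and 7.10 CPM in the control group and at 19.1 and 17.3 CPM in the mutant group, from 21, 16, 46 and 37 reads. Both mutant values were above both control values. The means were 8.92 ± 2.57 and 18.2 ± 1.26 CPM (SD, n = 2 each), a fold change of 1.97 (0.98 on the log2 scale, standard error 0.30, 95% interval 0.36 to 1.59). This did not pass the adjustment over all genes (adjusted p = 0.175, limma). *Polk* was called only where control replicate 1 was left out (log2 fold change 1.24, adjusted p = 0.017 from limma on the 3 other libraries), a fit in which 1.92% of all genes were called higher and the lone control library was assumed to vary like the mutant libraries.

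The stretches before the starts of *Polk*, *Ercc5* and *Ercc6* are shown because these members were among those with the smallest p and p53 is a known regulator of *Polk*. RefSeq windows from 250 bases before to 50 bases after a start were at hand for 52 of the 66 members, and the 250 bases before the start are printed 5′ to 3′ (GRCm38.p6). Capitals mark a match to the p53 element by name (a pair of sites of 10 bases, up to 13 bases apart, with at most 1 mismatch in all) or to CCAAT. The *Polk* window is chr13:96519188-96519437 (minus strand) at a start inside the gene and holds no annotated exon, that of *Ercc5* is chr1:44147494-44147743 (plus strand) and that of *Ercc6* is chr14:32513271-32513520 (plus strand). The window of *Xrcc6* and the other window of *Polk* hold exons and are not printed. The last line gives the p53 element of *Cdkn1a*, at chr17:29090928-29090947, which is 1 of 2 overlapping matches that the same search found there and is given for comparison.
Polk: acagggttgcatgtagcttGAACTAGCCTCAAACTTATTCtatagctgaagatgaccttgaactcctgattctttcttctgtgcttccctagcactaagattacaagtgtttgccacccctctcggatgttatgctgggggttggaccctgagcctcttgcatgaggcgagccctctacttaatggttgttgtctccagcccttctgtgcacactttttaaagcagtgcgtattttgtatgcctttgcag
Ercc5: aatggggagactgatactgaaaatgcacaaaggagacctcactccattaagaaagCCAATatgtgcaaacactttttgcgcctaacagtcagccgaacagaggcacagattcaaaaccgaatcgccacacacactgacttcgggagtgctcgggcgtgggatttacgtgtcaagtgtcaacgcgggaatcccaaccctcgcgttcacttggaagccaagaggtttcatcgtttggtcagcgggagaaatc
Ercc6: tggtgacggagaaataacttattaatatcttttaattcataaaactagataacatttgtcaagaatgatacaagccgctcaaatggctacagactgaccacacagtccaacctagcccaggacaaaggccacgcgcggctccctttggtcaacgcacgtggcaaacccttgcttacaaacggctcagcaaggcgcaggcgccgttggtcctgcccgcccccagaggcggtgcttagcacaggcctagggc
Cdkn1a: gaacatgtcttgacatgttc

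The match before the internal start of *Polk* spans bases −231 to −211 (chr13:96519398-96519418) and has 1 mismatch. The *Polk* mismatch puts an A in place of the fixed G of the second site. The printed *Cdkn1a* element, 20 bases without a gap, has 1 mismatch as well, at the first base of its second site. The other match there, at chr17:29090906-29090937, has 0 mismatches but spans 32 bases, so its sites lie apart. The *Polk* match was found in only 1 of its 2 windows, the one at the internal start. The other window, chr13:96542580-96542829, lies directly before the annotated start of the gene and held no match to any motif searched. Across all 32851 RefSeq windows 1.09% held such a match (1.24% of the 27025 genes with a window), and *Polk* was the only one of the 52 members with a window to hold one. CCAAT was found on either strand in 37.4% of all windows, in those of 41.1% of all genes and in those of 27 of the 52 members, among them *Ercc5* (bases −195 to −191). The E2F words TTTCGCGC, TTTGGCGC, TTTCCCGC and TTTGGCGG were in 2.37% of all windows, in those of 2.70% of all genes and in those of 10 members, including *Brca2*, *Chek1*, *Lig1*, *Msh6* and *Xrcc6*. The NRF1 word GCGCATGC, which can share bases with its own reverse complement, was in 2.71% of windows, 3.05% of genes and 10 members, with matches across the start of *Ercc6*, and the ETS word CCGGAAGT was in 3.89% of windows, 4.31% of genes and 2 members (*Ercc1* and *Lig4*). The motifs and the mismatch rule were chosen after the values were known. A match is a string of letters and not a binding site. Since no member passed the test, the words could not be compared with calls.

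**Figure D2:**
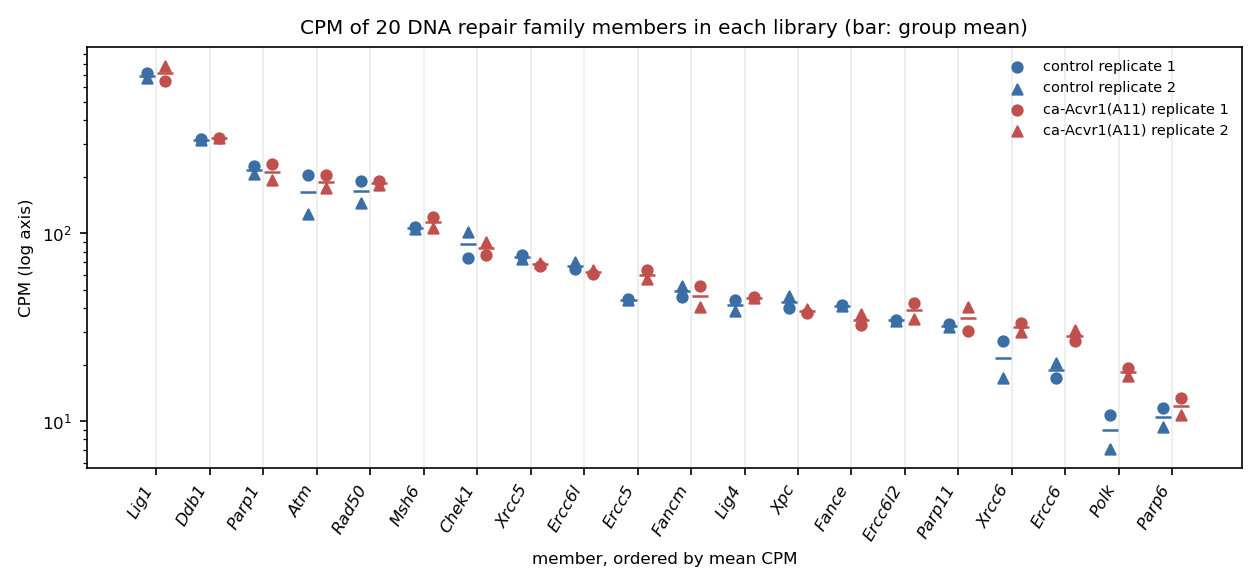
CPM on a log axis for the 20 members named with values, in each of the 4 libraries, with group means as bars and members ordered by mean level. *Polk*, *Ercc6*, *Ercc5* and *Xrcc6* have both ca-*Acvr1(A11)* points above both control points, and for *Lig1*, *Parp1*, *Atm* and *Chek1* the points of the groups overlap.

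The damage checkpoint kinases had 0 calls among 4 members, with a median log2 fold change of 0.09. *Atm*, the kinase that double-strand breaks activate, was at 204 and 127 CPM in the control group and at 204 and 174 CPM in the mutant group (log2 fold change 0.22, standard error 0.17, adjusted p = 0.758). Control replicate 2 was the low library and the 3 others lay between 174 and 204 CPM. Without control replicate 1 *Atm* was called higher (0.57 on the log2 scale, adjusted p = 0.024 with limma), but it lay at −0.12 when control replicate 2 was left out. *Chek1*, the effector kinase downstream of ATR, was at 74.1 and 101 CPM against 76.4 and 90.3 CPM, with overlapping groups (log2 fold change −0.06, adjusted p = 0.957). *Atr* and *Chek2* had log2 fold changes of 0.11 and 0.07.

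The base excision and single-strand break genes *Lig1*, *Lig3*, *Parp1*, *Parp2*, *Parp3* and *Xrcc1* had 0 calls and a median log2 fold change of 0.02. *Lig1*, the ligase that joins Okazaki fragments and seals repair patches, had the highest level of all members. It was at 717 and 673 CPM in the control group and at 653 and 779.6 CPM in the mutant group, and both extremes were mutant libraries (log2 fold change 0.04, standard error 0.14, adjusted p = 0.964). *Parp1*, the sensor of strand breaks, was at 229 and 208 CPM against 233 and 193 CPM (log2 fold change −0.04, adjusted p = 0.966). *Lig3*, the ligase partner of XRCC1, had the most negative log2 fold change among the 63, −0.40 (95% interval −0.92 to 0.12, adjusted p = 0.686). Its last exon overlaps *Rffl* on the other strand, and whether the counting used strand is not given in the sources used here. *Parp2*, the partner of *Parp1* in sensing breaks, and the scaffold *Xrcc1* had log2 fold changes of 0.10 and 0.00. *Parp3* reached 0.87, from at most 10 reads in a library (adjusted p = 0.646).

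Of the 4 members that passed the unadjusted threshold, 2 belong to nucleotide excision repair, a count too small to be read as a trait of the pathway. *Ercc6* encodes CSB, which acts where RNA polymerase is stalled at a lesion (GRCm38 chr14:32513521-32580990, plus strand, Entrez gene 319955). It was at 16.9 and 20.4 CPM in the control group and at 26.6 and 30.4 CPM in the mutant group, with separate groups (log2 fold change 0.59, standard error 0.24, adjusted p = 0.393). *Ercc5* encodes XPG, the nuclease that cuts on the 3′ side of the lesion (chr1:44147744-44181260, plus strand, Entrez gene 22592). It was at 44.5 and 44.4 CPM against 63.5 and 57.1 CPM, a fold change of 1.35 (log2 fold change 0.43, standard error 0.18, adjusted p = 0.424). Neither passed the adjusted test.

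The recognition genes of the same pathway lay near 0. *Xpc*, which finds distorted DNA and which p53 can induce (chr6:91489305-91515888, minus strand, Entrez gene 22591), was at 39.9 and 46.2 CPM in the control group and at 37.8 and 39.3 CPM in the mutant group. Both mutant values were just below both control values (43.0 ± 4.46 and 38.5 ± 1.08 CPM, SD, n = 2 each), and the log2 fold change was −0.15 (standard error 0.20, 95% interval −0.55 to 0.25, adjusted p = 0.880). The upper end of this interval lies under the lower end of the interval of *Polk*, which was picked as the largest difference. The contrast between these genes was not tested. *Ddb1*, the adaptor of the ubiquitin ligase that marks damaged chromatin, was even across the libraries, at 319 and 314 CPM against 323 and 323 CPM (log2 fold change 0.03, adjusted p = 0.972). *Ercc1*, *Ercc2*, *Ercc3*, *Ercc4* and *Ercc8* had log2 fold changes from −0.17 to 0.36 and no adjusted p under 0.779. The last exons of *Ercc1* and *Ercc2* overlap *Cd3eap* and *Klc3*.

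Mismatch repair had 0 calls among 5 members and a median log2 fold change of 0.09. *Msh6*, which takes part in the recognition of single mismatches, was at 109 and 105 CPM in the control group and at 122 and 107 CPM in the mutant group (log2 fold change 0.09, adjusted p = 0.916), and its last exon overlaps *Fbxo11*. *Msh3* and *Mlh3* had log2 fold changes of 0.22 and 0.05.

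Homologous recombination was the largest family, with 15 members, 0 calls and a median log2 fold change of 0.05 (range −0.32 to 0.41). *Rad50*, a subunit of the complex that first binds broken ends, was at 189.6 and 146 CPM in the control group and at 191 and 182 CPM in the mutant group, where control replicate 2 was again the low library (log2 fold change 0.17, adjusted p = 0.813). The mediators *Brca1* and *Brca2* had log2 fold changes of 0.06 and −0.04, with 95% intervals within 0.45 of 0 on either side. *Rad51b*, *Rad51c*, *Rad51d*, *Xrcc2* and *Xrcc3*, which act early in strand exchange, had log2 fold changes from 0.05 to 0.41. *Rad51ap1*, *Rad52*, *Rad54b*, *Rad54l2* (grouped here by its family name), *Rad54l* and the helicase gene *Blm* lay between −0.32 and 0.06. None of these passed the unadjusted threshold. The last exon of *Rad54l*, the lowest of them, overlaps *Lrrc41*, and transcript ends of *Rad54b* match *Fsbp*.

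The fourth member that passed the unadjusted threshold belongs to end joining. *Xrcc6* encodes Ku70, which with Ku80 caps broken DNA ends (chr15:81987835-82040085, plus strand, Entrez gene 14375). It was at 26.6 and 16.9 CPM in the control group and at 33.2 and 29.9 CPM in the mutant group (fold change 1.47, log2 fold change 0.55, standard error 0.24, adjusted p = 0.449). The groups were separate, but leaving out control replicate 2 gave a log2 fold change of 0.24, and leaving out control replicate 1 gave 0.86. *Xrcc5*, which encodes the partner Ku80, lay slightly the other way, at 76.7 and 73.2 CPM against 67.3 and 69.7 CPM (log2 fold change −0.13, adjusted p = 0.880). *Lig4*, the ligase of this pathway, was at 43.9 and 38.6 CPM against 45.7 and 45.4 CPM (0.14, adjusted p = 0.890), and its cofactor *Xrcc4* had a log2 fold change of −0.13. The subunits of the Ku dimer thus had values in opposite directions, neither past the test.

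The Fanconi anemia genes had 0 calls among 9 members. A log2 fold change under 0 was seen for 7 of the 9 (median −0.12), and for 5710 of all 12462 genes tested. *Fancm*, the translocase that recruits the core complex, was at 46.0 and 52.4 CPM in the control group and at 52.3 and 40.7 CPM in the mutant group (log2 fold change −0.09, adjusted p = 0.943). *Fance*, a subunit of that complex, was at 41.4 and 40.8 CPM against 32.4 and 37.0 CPM, with both mutant values lower (−0.24, adjusted p = 0.783). *Fancb*, another subunit, had the highest log2 fold change of the family, 0.55, at 13.3 and 10.8 CPM against 8.18 and 7.55 CPM in control (adjusted p = 0.641). *Fancd2* and *Fanci*, whose products form the dimer that the core complex ubiquitinates, had log2 fold changes of −0.01 and 0.32, and *Fancc*, *Fancf*, *Fancg* and *Fancl* had values from −0.26 to −0.12. Of the 9, 7 lay under 20 CPM, and the ends of *Fancd2*, *Fancf*, *Fanci* and *Fancl* overlap other genes.

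The other members of the PARP family, several of which act outside DNA repair, had 0 calls among 6 tested. *Parp11* was at 32.7 and 31.5 CPM in the control group and at 30.3 and 40.7 CPM in the mutant group (log2 fold change 0.13, adjusted p = 0.919), and *Parp6* at 11.8 and 9.32 CPM against 13.3 and 10.8 CPM (0.18, adjusted p = 0.921). *Parp4*, *Parp8*, *Parp9* and *Parp16* had log2 fold changes from −0.35 to 0.29, at means under 20 CPM. *Parp12* and *Parp14* had at most 3 reads in any library. The symbols also took in *Ercc6l*, *Ercc6l2*, *Fancd2os*, *Msh5* and *Rad51ap2*, which carry a family name and were not placed in one of these pathway groups. *Ercc6l*, a helicase of mitotic chromosomes, was at 64.4 and 70.1 CPM against 60.6 and 63.6 CPM (−0.11, adjusted p = 0.910), and *Ercc6l2* at 34.8 and 34.2 CPM against 42.8 and 35.1 CPM (0.16, adjusted p = 0.874). Transcript ends of *Ercc6l* match a stretch of *Cmah* and of 3 gene models, which need not be at their ends. Whether its reads were split between them was not tested.

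The wider repair machinery gave the same count. A list of 91 other tested genes of these pathways had 0 calls, with a median log2 fold change of 0.00 and 46 values above and 45 below 0. At the unadjusted threshold 1 was higher and 3 were lower. *Ube2t*, the ubiquitin-conjugating enzyme of the Fanconi anemia pathway, had the smallest p and was at 12.8 and 20.9 CPM in the control group and at 13.3 and 6.08 CPM in the mutant group, with overlapping groups (log2 fold change −0.79, adjusted p = 0.433). That value ranged from −1.29 without mutant replicate 1 to −0.28 without mutant replicate 2. *Tdp1*, which removes trapped topoisomerase, was at 43.9 and 38.6 CPM against 54.0 and 56.6 CPM (0.42, adjusted p = 0.467). *Cetn2*, a partner of XPC that also belongs to centrioles, was at 149.7 and 187 CPM against 129.9 and 136 CPM (−0.33, adjusted p = 0.480).

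The p53-inducible repair genes were compared with the rest and with p53 targets of other function. *Polk* ranked first and *Xpc* ranked 53 of 63 by log2 fold change, so the p53-inducible members lay on opposite sides of 0, at 0.98 and −0.15. The 61 other tested members had a median of 0.05. In a list of p53 targets outside DNA repair 9 of 20 tested genes were called higher and 0 lower, with a median log2 fold change of 0.89 and a summed level of 615 and 546 CPM in control against 1266 and 1146 CPM. *Cdkn1a*, the p53-induced inhibitor of cell cycle kinases, was at 29.1 and 32.4 CPM against 189.7 and 164 CPM (log2 fold change 2.48, adjusted p = 1.5e-10, limma). *Trp53* itself was at 35.8 and 54.6 CPM against 37.8 and 32.8 CPM (−0.32, adjusted p = 0.701), and lay at −0.62 without control replicate 1 and at −0.02 without control replicate 2. Proliferation genes, which share a dependence on the cell cycle with many repair genes, had 0 calls among 28 and a median of −0.05. Lists chosen with earlier results in view give no independent evidence of a direction, and the difference between *Polk* and the other members was not tested.

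**Figure D3:**
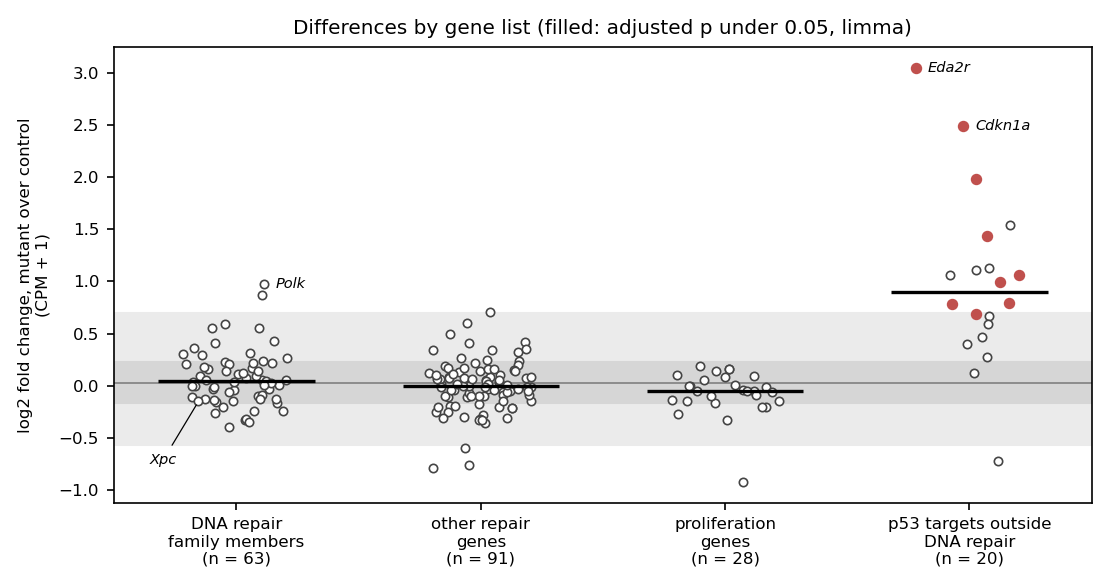
Log2 fold change in ca-*Acvr1(A11)* over control libraries (y axis) for each tested gene of 4 lists, with list medians as bars. The grey bands hold the middle 50% and 90% of all genes tested, filled points passed an adjusted p under 0.05, and filled points appear only among the p53 targets outside DNA repair, where 9 of 20 passed.

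The 95% interval of 52 of the 63 members lay within a change of 2-fold in either direction, and that of 31 within 1.5-fold. Those intervals were set mainly by the level of a gene, since with 2 libraries a group limma draws the spread largely from genes of a like level. The half-width of the interval had a median of 0.37 on the log2 scale for the 35 members at 20 CPM or more and of 0.63 for the 28 members under 20 CPM. It was narrowest for *Ddb1* (0.28) and widest for *Rad51ap2* (1.09), which had from 2 to 4 reads in a library. In 47 members every library had 20 reads or more. The intervals of *Polk*, *Ercc6*, *Xrcc6*, *Parp3*, *Parp8*, *Parp9*, *Ercc1*, *Rad51b* and *Fancb* reached 2-fold higher, and those of *Parp4* and *Rad51ap2* reached 2-fold lower.

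**Figure D4:**
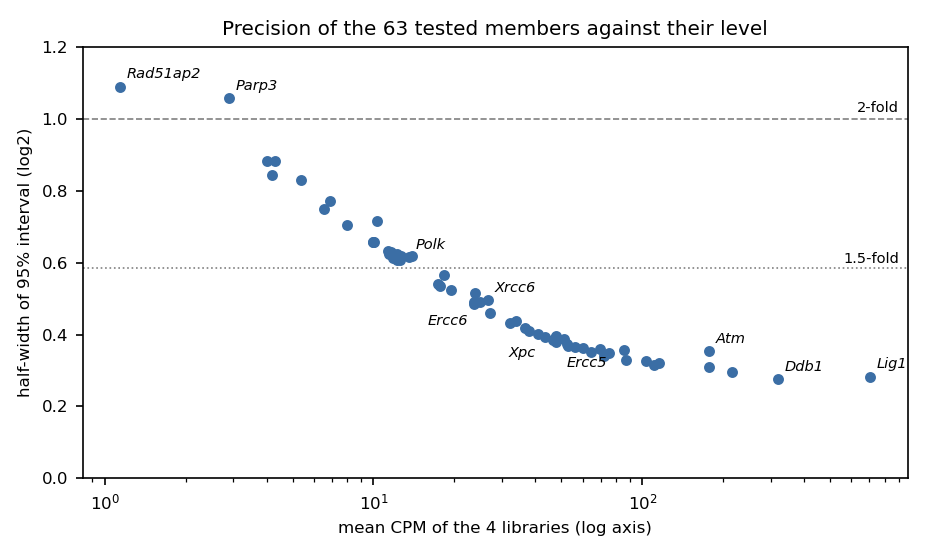
Half-width of the 95% interval of the log2 fold change (y axis) against the mean CPM of the 4 libraries (log x axis) for the 63 tested members, with dashed and dotted lines at a 2-fold and a 1.5-fold change. The half-width falls with level, from 1.09 for *Rad51ap2* to 0.28 for *Ddb1*.

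Of the 66 members, 11 have a last exon that overlaps another gene in GENCODE M21 on GRCm38, and 7 have a transcript end of at least 150 bases that matches another gene at 95% identity or more. *Polk*, *Ercc5*, *Ercc6*, *Xrcc6* and *Xpc* belong to neither group. *Lig3*, *Fancd2*, *Fancd2os* and *Fancl* belong to both. In each of them the matched gene is the overlapping gene on the other strand, so both entries describe the same overlap. Their values are uncertain to that extent.

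The groups did not overlap for *Polk*, *Ercc6*, *Ercc5*, *Xrcc6* and *Xpc*. Leaving out 1 library therefore could not reverse their directions, and only the size of the change is informative. The log2 fold change of *Polk* ran from 0.71 to 1.24 over 14 alternatives, that of *Ercc6* from 0.46 to 0.72, that of *Ercc5* from 0.35 to 0.51 and that of *Xrcc6* from 0.24 to 0.86, all above 0. *Xpc* stayed under 0 in all 14 (−0.25 to −0.05). *Polk* and *Atm* were called only without control replicate 1 (2 of 64 members tested there, where 1.92% of all genes were called higher), and 0 members were called under the 13 other alternatives.

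**Figure D5:**
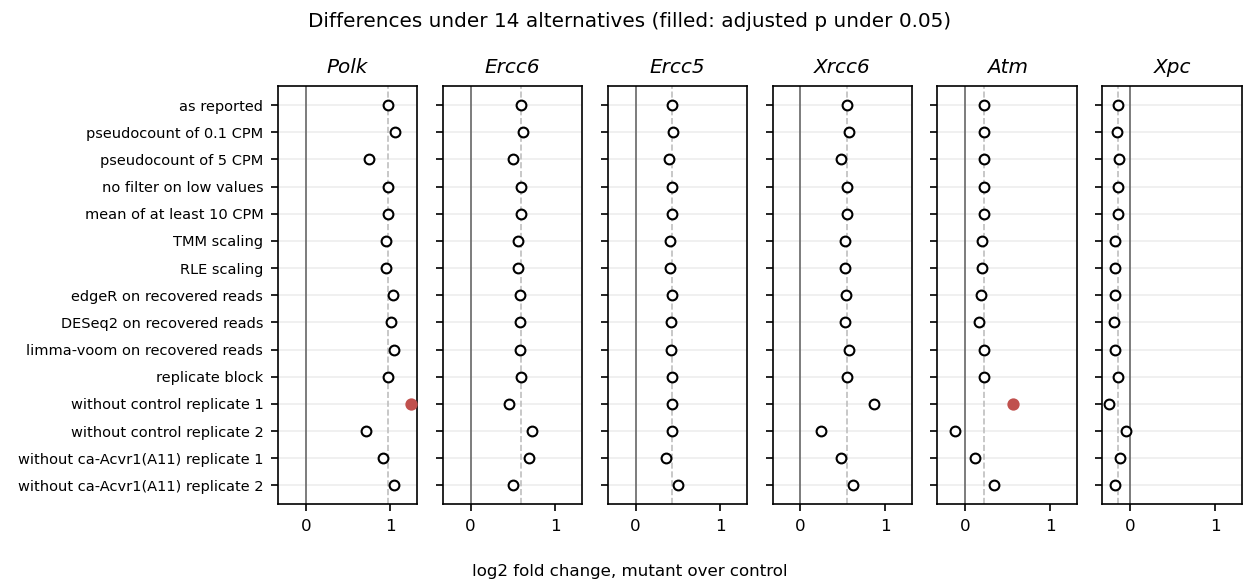
Log2 fold change (x axis) of 6 members as reported and under 14 alternatives (y axis), with the reported value as a dashed line. Filled points passed an adjusted p under 0.05, which happened only for *Polk* and *Atm* without control replicate 1, and *Atm* lies under 0 without control replicate 2.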

How the data were processed

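Bulk RNA-Seq libraries were made from Trizol-extracted RNA with the QuantSeq 3′ kit (Lexogen). The authors deposited CPM values, reads per gene scaled to the library total, for 13577 genes, beside 33470 empty lines and 0 unused columns of values. The submitters' processing notes name STAR, featureCounts 1.6.4, DESeq2 and mm10, with no further settings given in the sources used here. Whole reads were recovered from the step between CPM values (99.92% of 54308 values within 0.02 reads, including every value of the members), and gave the depths stated above.

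Groups follow the titles. The members and lists, and the motif rule, were chosen with earlier results of these data known. The main test was limma 3.58.1 (trend, empirical Bayes) on log2(CPM + 1) for genes with a mean above 1 CPM over the 4 libraries, with Benjamini-Hochberg adjustment over all 12462 genes at 0.05. A fold change on this scale understates that of low genes. The scripts were first tested on simulated reads with known changes. An exact permutation test of 2 libraries against 2 cannot go below p = 0.333 and was not used. Alternatives were other pseudocounts (0.1 and 5 CPM), no filter or a mean of at least 10 CPM, TMM and RLE scaling, edgeR 4.0.16, DESeq2 1.42.0 and limma-voom on recovered reads, a replicate block and leaving out each library (R 4.3.3, Python 3.11.15). Intervals cover these libraries only. Values in each library were given for the p53-inducible members, members with an unadjusted p under 0.05 and the 2 highest members of each pathway, and outside the members for *Trp53*, *Cdkn1a*, *Acvr1* and the 3 other repair genes with the smallest p. The values of 3 members are not reported here by name and enter the counts only. Transcript ends (last 300 bases) were compared with whole transcripts on either strand by blastn 2.17.0.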

Additional observations from a re-analysis of the deposited data

How the results depend on the processing

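Among the 63 tested members 0 were called in either direction, and this count held under 13 of 14 alternatives. Leaving out each library in turn gave 0 to 2 members called higher, 2 to 7 higher at an unadjusted p under 0.05 and 0 to 1 lower (*Fancf*, without control replicate 1), where 4 and 0 were reported. DESeq2 on recovered reads gave 1 member higher at an unadjusted p under 0.05. The share of all genes at that unadjusted threshold is not given for DESeq2 or for the fits that left out a library. Whether the member counts of those fits differ from all genes was therefore not tested. The median log2 fold change of the members stayed between 0.01 and 0.10. The smallest adjusted p of a member was 0.146 with edgeR, 0.152 with limma-voom, 1.00 with DESeq2 and 0.521 without ca-*Acvr1(A11)* replicate 1. Over all genes, 112 were called as reported, 133 of 10168 by edgeR on recovered reads, 39 by DESeq2, 229 with the replicate block and 465 without control replicate 1; the causes were not tested. The labels do not say whether samples of the same replicate number share a litter or a preparation. The correlation of their deviations was 0.067, which cannot settle this. With the replicate block 0 members were called, and the smallest adjusted p of a member was 0.057.

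Some members with a small difference changed sign when 1 library was left out. Over these 4 fits, the log2 fold change ran from -0.088 to 0.17 for *Lig1*, from -0.17 to 0.097 for *Parp1*, from -0.12 to 0.57 for *Atm* and from -0.28 to 0.16 for *Chek1*. It ran from -0.022 to 0.36 for *Rad50*, from -0.26 to 0.090 for *Fancm* and from -0.081 to 0.33 for *Parp11*. For *Acvr1*, which is not a member, it ran from -0.77 to 0.11. *Atm* was called once, without control replicate 1, and the others were not called.

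With 2 libraries a group, members under 20 CPM rest on few reads, and their intervals are wide. Directions depend on the titles, which the genotype entries contradict.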
